A study of Mus musculus with 13 samples.

Results

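The genes described here mark the basal cells of the prostate epithelium: the keratins Krt5, Krt14, Krt15 and Krt17, the transcription factor Trp63 (p63), the desmosomal cadherin Dsg3, the laminin chain Lamb3 and the integrin subunits Itgb4 and Itga6. They were taken by symbol as a list of 9 genes, and all 9 have a row in the tumour table of 24421 entries and in the fat table of 23360 entries. Polyadenylated RNA was sequenced as single reads of 75 bases from prostate tumours and epididymal white fat of TRAMP mice, in 13 libraries. Every group was C57BL/6, carried the TRAMP transgene, ate a regular diet and was 30 to 35 weeks old. The knockout groups (genotype TRAMP+;p62aP2KO) lacked p62, the autophagy receptor encoded by Sqstm1, in adipocytes, and comprised 3 tumour and 3 fat libraries. The wild-type groups (genotype TRAMP+;p62f/f) carried the floxed gene and comprised 4 tumour and 3 fat libraries. By its label the deletion was made in adipocytes, and the comparison sets tumours of such hosts beside tumours of wild-type hosts. The name aP2 refers to the promoter of Fabp4, which is also active in some cells other than adipocytes, such as macrophages.

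In the prostate duct, basal cells sit between the secretory luminal cells and the basement membrane. They build their cytoskeleton from KRT5 paired with KRT14, or with KRT15 or KRT17 in subsets, whereas luminal cells use KRT8 paired with KRT18. p63 maintains the basal state, and integrin alpha-6 beta-4 anchors the keratins to laminin-332 through hemidesmosomes. In TRAMP mice the SV40 T antigens are driven by the probasin promoter in luminal cells, and the tumours that result are largely luminal or neuroendocrine, so basal cells are a minor part of the tissue.

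The keratins come from clusters of similar genes, and reads of 75 bases cannot always be assigned to a single member. Of all windows of that length in the annotated transcripts, 5.71% of those of Krt14 also occurred in Krt16 and 5.18% of those of Krt5 in Krt6a, Krt6b or 2 unnamed gene models, while Krt15, Krt17, Trp63, Dsg3, Lamb3 and Itgb4 shared none; Itga6 shared 4.46%, with several gene models. The windows below are shown because they give both cases. They lie in the coding part of exon 1 on the minus strand of mm10, at chr11:100207211-100207285 for Krt14, chr11:100248646-100248720 for its neighbour Krt16, chr11:100260808-100260882 for Krt17 and chr11:100135632-100135706 for Krt15. Capitals mark the bases that differ from Krt14.
Krt14: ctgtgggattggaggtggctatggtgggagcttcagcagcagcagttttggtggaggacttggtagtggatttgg
Krt16: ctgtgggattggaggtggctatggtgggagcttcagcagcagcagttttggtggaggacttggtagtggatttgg
Krt17: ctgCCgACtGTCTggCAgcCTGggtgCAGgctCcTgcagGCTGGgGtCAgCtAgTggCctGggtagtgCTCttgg
Krt15: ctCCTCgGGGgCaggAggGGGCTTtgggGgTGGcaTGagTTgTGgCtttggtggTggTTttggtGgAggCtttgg
Over these 75 bases Krt16 had 0 differences from Krt14, Krt17 had 34 and Krt15 had 32. The sources used here do not say how the authors counted reads that match several genes.

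Krt15, Krt14 and Krt17 belong to the type I keratin cluster of chromosome 11 and lie at 100131758 to 100135928, 100203162 to 100207548 and 100256217 to 100261029, and Itgb4 lies further along at 115974709 to 116008412. Krt5 is on chromosome 15 at 101707070 to 101712898, Trp63 on chromosome 16 at 25683763 to 25892102, Lamb3 on chromosome 1 at 193207699 to 193343878, Itga6 on chromosome 2 at 71745616 to 71858416 and Dsg3 on chromosome 18 at 20510274 to 20547459 (mm10, protein coding in every case).

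Some libraries went against their labels or stood apart. Sqstm1 stood at 8.97, 176 and 19.5 CPM (counts scaled to library size, here with TMM factors) in knockout tumours 1 to 3, against 173, 5.65, 167 and 151 CPM in wild-type tumours 1 to 4, so the libraries labelled knockout 2 and wild type 2 carried the level of the other genotype. In fat, Sqstm1 stood at 4.53, 54.5 and 2.58 FPKM in libraries labelled knockout 1 to 3, against 73.6, 1.77 and 84.3 FPKM in libraries labelled wild type 1 to 3, with the same reversal in the libraries numbered 2. Sqstm1 was thus low in whole tumour tissue of knockout tumours 1 and 3, so that an effect of the host's fat and an effect of low p62 within the tumour cannot be told apart. Groups were kept as labelled, and results are also given without both libraries numbered 2. Total counts per tumour library ranged from 17810397 to 32475051 reads. The list of 10 seminal vesicle and epididymis genes summed to 47459 CPM in knockout tumour 1 and 8.39 to 3814 CPM in the other 6 tumours. The 15 neuroendocrine genes summed to 1556 CPM in wild-type tumour 1 and 53.7 to 81.0 CPM in the others. Wild-type tumour 3 was short of long transcripts: the median log2 deviation of genes over 5 kb minus that of genes under 1.5 kb was -1.10 there and between -0.17 and 0.45 in the other 6 tumours. Trp63, Lamb3, Itgb4 and Itga6 are over 5 kb, the 4 keratins lie between the length classes at 1.55 to 2.2 kb, and the part of length in the values of that library was not tested.

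Of the 9 members, 8 were detected in all 7 tumours, and Dsg3 in 3 of them. No member differed between genotypes after adjustment over all genes. Of 15117 genes tested with edgeR's quasi-likelihood test, 0% passed an adjusted p of 0.05 and 12.4% had an unadjusted p under 0.05, 6.17% with a higher value in knockout tumours; of the 8 members tested, 0 passed and 1, Krt14, had an unadjusted p under 0.05. In the fit with the library number as a block, 11.6% of all genes had an unadjusted p under 0.05, and the member that did was Itgb4 (log2 fold change 0.77, unadjusted p = 0.0393, adjusted p = 0.408) and not Krt14 (1.15, unadjusted p = 0.153, adjusted p = 0.597). DESeq2 called 846 of 14867 genes (5.69%) and 0 members. The estimated log2 fold change, knockout over wild type, was above 0 for 8 of 8 tested members, with a median of 0.84, where 43.2% of all genes were above 0 and the median of all genes was -0.07. These counts describe the 9 genes and are not a test of them, and without knockout tumour 1, wild-type tumour 1 or wild-type tumour 3 the number above 0 was 6. The share of all genes above 0 was not computed without these libraries. Without knockout tumour 1 the median was 0.30 for the members and -0.09 for all genes. In bulk tissue, a difference in the number of basal cells and one in the RNA made per basal cell cannot be told apart.

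Krt5, the type II keratin of the basal layer, stood at 59.6, 27.3 and 23.2 CPM in knockout tumours 1 to 3, against 17.4, 34.0, 12.3 and 16.5 CPM in wild-type tumours 1 to 4. Knockout tumour 1 was the highest of all, and the groups overlapped because wild-type tumour 2 exceeded 2 of the knockout tumours. Krt5 averaged 36.7 ± 19.9 CPM in knockout tumours (SD, n = 3) and 20.1 ± 9.53 CPM in wild-type tumours (SD, n = 4), a log2 fold change of 0.87 (SE 0.45, adjusted p = 0.485 by edgeR), and of 0.33 without knockout tumour 1.

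Krt14, the type I partner of KRT5, stood at 41.2, 14.2 and 14.8 CPM in knockout tumours, against 5.01, 14.3, 9.84 and 6.45 CPM in wild-type tumours. The groups met at the level of knockout tumour 2 and wild-type tumour 2, the libraries whose Sqstm1 went against their labels. Krt14 averaged 23.4 ± 15.4 CPM in knockout tumours (SD, n = 3) and 8.90 ± 4.13 CPM in wild-type tumours (SD, n = 4). Its log2 fold change of 1.39 (SE 0.52) was the largest of the members, with an unadjusted p of 0.0293 and an adjusted p of 0.343 by edgeR and an adjusted p of 0.137 by DESeq2. Without knockout tumour 1 it was 0.70, below the 1.16 of Krt17.

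Krt15, a type I keratin of basal and progenitor-like cells, behaved differently between libraries of a group. It stood at 52.0, 25.1 and 18.4 CPM in knockout tumours, against 13.6, 75.7, 25.0 and 9.23 CPM in wild-type tumours. Wild-type tumour 2 was the highest and wild-type tumour 4 the lowest of all 7, so the wild-type range enclosed the knockout range. Krt15 averaged 31.8 ± 17.8 CPM in knockout tumours (SD, n = 3) and 30.9 ± 30.6 CPM in wild-type tumours (SD, n = 4), a log2 fold change of 0.04 (SE 0.73, adjusted p = 0.988 by edgeR). Without wild-type tumour 2 this value was 1.00, and without knockout tumour 1 it was -0.51.

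Krt17, a type I keratin that is also induced in stressed epithelium, stood at 4.99, 6.44 and 8.08 CPM in knockout tumours, against 0.959, 5.14, 4.60 and 2.29 CPM in wild-type tumours. Unlike Krt5, Krt14 and Krt15, it was not highest in the group in knockout tumour 1. The groups overlapped only through wild-type tumour 2, which lay just above knockout tumour 1. Krt17 averaged 6.50 ± 1.55 CPM in knockout tumours (SD, n = 3) and 3.25 ± 1.96 CPM in wild-type tumours (SD, n = 4), a log2 fold change of 1.00 (SE 0.60, adjusted p = 0.549 by edgeR).

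Trp63, which encodes the factor that maintains basal identity, was set apart by a single library. It stood at 46.6, 10.1 and 10.1 CPM in knockout tumours, against 6.29, 13.6, 7.50 and 8.65 CPM in wild-type tumours. Knockout tumour 1 lay far above the rest, and the other 6 tumours were between 6.29 and 13.6 CPM. Trp63 averaged 22.3 ± 21.1 CPM in knockout tumours (SD, n = 3) and 9.01 ± 3.20 CPM in wild-type tumours (SD, n = 4), a log2 fold change of 1.30 (SE 0.61, adjusted p = 0.432 by edgeR). Without knockout tumour 1, the library rich in seminal vesicle genes, the log2 fold change was 0.17. p63 is not restricted to the prostate and marks basal cells of the seminal vesicle as well; the part of that tissue in the value of knockout tumour 1 was not tested.

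**Figure D1:**
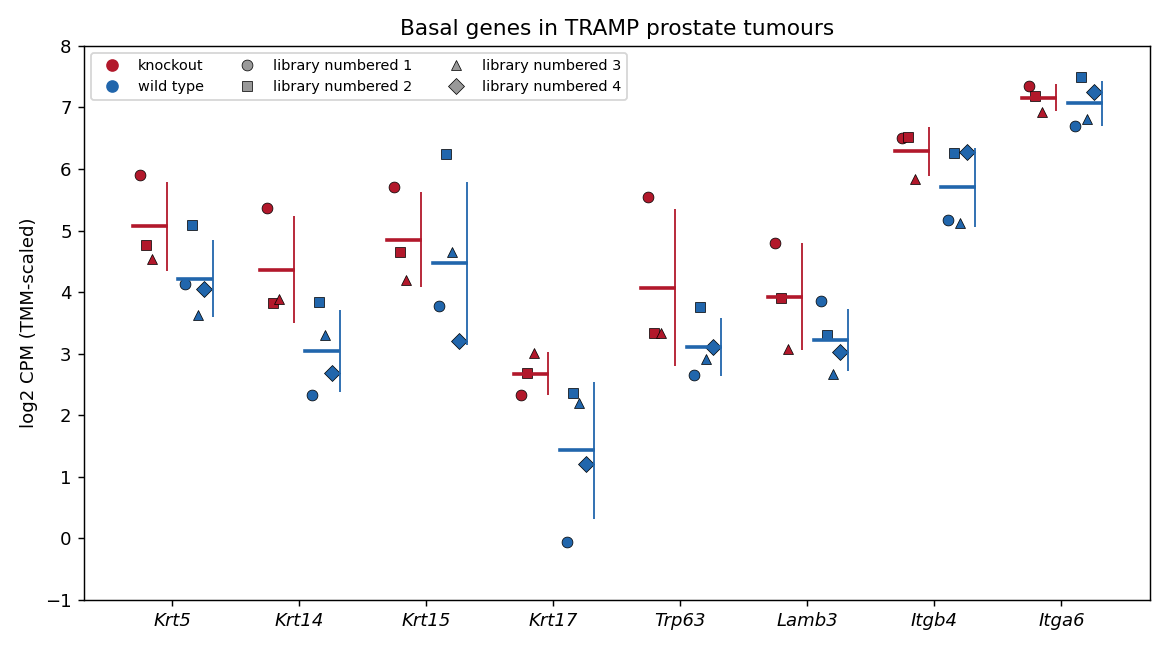
Level of the 8 tested basal genes in each tumour library, as log2 CPM scaled by TMM, with knockout libraries left of wild-type libraries for each gene; marker shape gives the library number, horizontal lines are group means of the log2 values and vertical lines their SD (n = 3 knockout, n = 4 wild type). Knockout tumour 1 is the highest library for Krt5, Krt14, Trp63 and Lamb3, wild-type tumour 2 is the highest for Krt15 and Itga6, and the groups overlap for every gene.

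Lamb3 and both integrin subunits attach basal cells to the basement membrane. Lamb3, the beta-3 chain of laminin-332, stood at 27.9, 14.98 and 8.38 CPM in knockout tumours, against 14.5, 9.91, 6.37 and 8.18 CPM in wild-type tumours. Knockout tumour 1 was again the highest, and knockout tumour 3 lay within the wild-type range. The log2 fold change was 0.81 (SE 0.48, adjusted p = 0.545 by edgeR), and 0.27 without knockout tumour 1.

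Itgb4, whose long cytoplasmic tail binds the hemidesmosomal plaque, stood at 90.7, 91.7 and 57.0 CPM in knockout tumours, against 35.9, 76.2, 34.7 and 77.2 CPM in wild-type tumours. The wild-type libraries fell into a low pair, numbered 1 and 3, and a high pair, numbered 2 and 4, with knockout tumour 3 between them. Itgb4 averaged 79.8 ± 19.7 CPM in knockout tumours (SD, n = 3) and 56.0 ± 23.9 CPM in wild-type tumours (SD, n = 4), with a log2 fold change of 0.51 (SE 0.36, adjusted p = 0.619 by edgeR).

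Itga6, the partner of ITGB4 and also of ITGB1 in cells without hemidesmosomes, varied least between libraries relative to its level. It stood at 164, 146 and 122 CPM in knockout tumours, against 104, 180.5, 113 and 152 CPM in wild-type tumours, a range that enclosed the knockout values. The log2 fold change was 0.07 (SE 0.25, adjusted p = 0.937 by edgeR). Itga6 is also made by endothelial cells. The 10 endothelial markers summed to 186 to 363 CPM in knockout tumours, against 91.9 to 161 CPM in wild-type tumours; their part in the Itga6 values was not tested.

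Dsg3, the cadherin of desmosomes in stratified epithelium, was at the limit of detection, with 0, 3 and 0 reads in knockout tumours, against 0, 3, 0 and 3 reads in wild-type tumours. It did not pass the filter on low counts and was not tested. A count of 0 allows a level of up to 3 reads, which is 0.127 to 0.212 CPM in the 4 libraries at 0, counting error only. Dsg3 had 0 reads in 4 of the 7 tumours, all of which had Krt5, Krt14 and Trp63 reads.

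**Figure D2:**
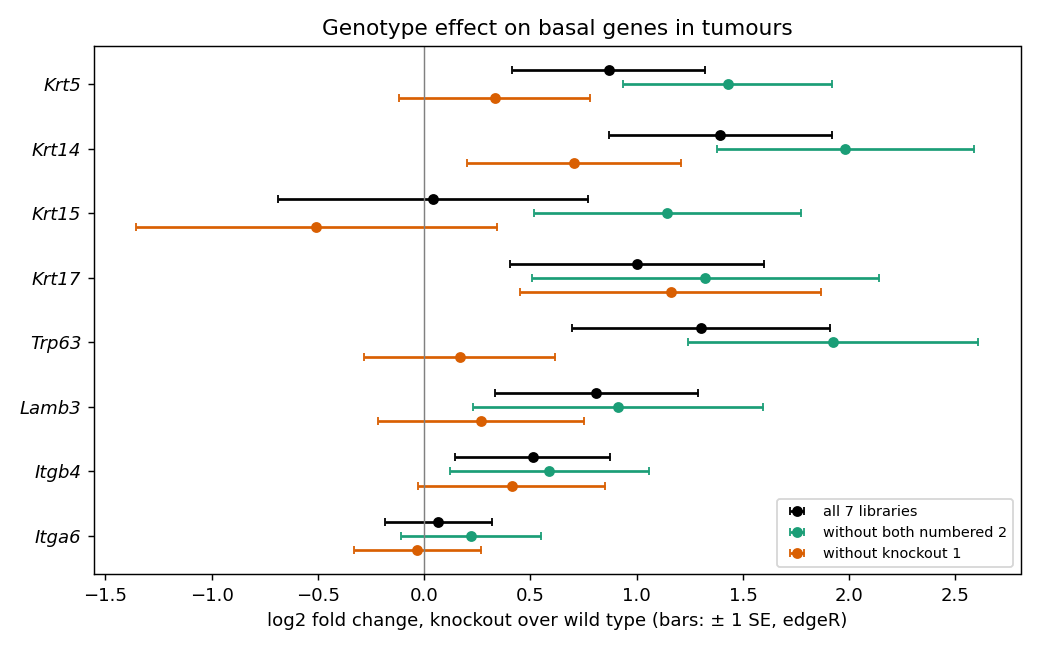
Log2 fold change, knockout over wild type, of the 8 tested basal genes in tumours by edgeR, with bars of 1 SE; black marks use all 7 libraries, green marks leave out both libraries numbered 2 and orange marks leave out knockout tumour 1. Krt14 has the highest value (1.39) and Krt15 the lowest (0.04), and the values of Krt15 and Itga6 fall on both sides of 0 when libraries are left out.

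To compare levels between genes, CPM were divided by the length of the exons of each gene in kb. On that scale the medians over the 7 tumours were 16.2 for Itga6, 14.1 for Krt15, 10.9 for Itgb4, 10.6 for Krt5, 8.07 for Krt14, 3.22 for Krt17, 1.499 for Lamb3 and 1.20 for Trp63. The ranges of all neighbouring pairs in this order overlapped, so the order is that of the medians only; Dsg3, at a median of 0, lay below the range of every other member. Trp63 has several isoforms, and the union of its exons is longer than any single transcript, which lowers its value on this scale. All lengths here are such unions, so the values of other members with several isoforms can be lowered as well.

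Ratios within a library do not depend on the scaling of libraries. The per-length ratio of Krt5 to its partner Krt14 was 1.16, 1.54 and 1.26 in knockout tumours, against 2.78, 1.90, 1.00 and 2.05 in wild-type tumours, and wild-type tumour 3 lay below all knockout tumours. The ratio of Itga6 to Itgb4 was 1.40, 1.24 and 1.66 in knockout tumours, against 2.25, 1.84, 2.52 and 1.53 in wild-type tumours, where only wild-type tumour 4 fell inside the knockout range. The ratio of Krt15 to Krt5 spread little in knockout tumours (0.985 to 1.15) and widely in wild-type tumours (0.694 to 2.77).

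Krt8 and Krt18, the luminal keratins, had log2 fold changes of -0.02 and 0.14 (adjusted p = 0.990 and 0.915 by edgeR). Against Krt8, Krt14 stood at a per-length ratio of 0.0919, 0.0393 and 0.0398 in knockout tumours, against 0.0301, 0.0301, 0.0222 and 0.0127 in wild-type tumours, and the groups did not overlap. Over all genes, the ratio to Krt8 was higher in every knockout tumour than in every wild-type tumour for 2.39%; among the 8 tested members this held for 2, Krt14 and Krt17. On the CPM scale itself, 6.69% of all genes had knockout values above all wild-type values and 7.05% had them below, and 0 of the 8 members did either. Krt5 against Krt8 stood at 0.106, 0.0604 and 0.04996 in knockout tumours, against 0.0839, 0.0572, 0.0222 and 0.0261 in wild-type tumours, with overlap.

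The 4 basal keratins together made up 5.74%, 2.48% and 1.78% of the summed per-length level of these and the simple keratins Krt7, Krt8, Krt18 and Krt19 in knockout tumours, against 2.70%, 3.80%, 0.804% and 0.929% in wild-type tumours. Simple keratins made up most of this sum in all 7 libraries. The group ranges overlapped, with wild-type tumours 3 and 4 below the others.

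**Figure D3:**
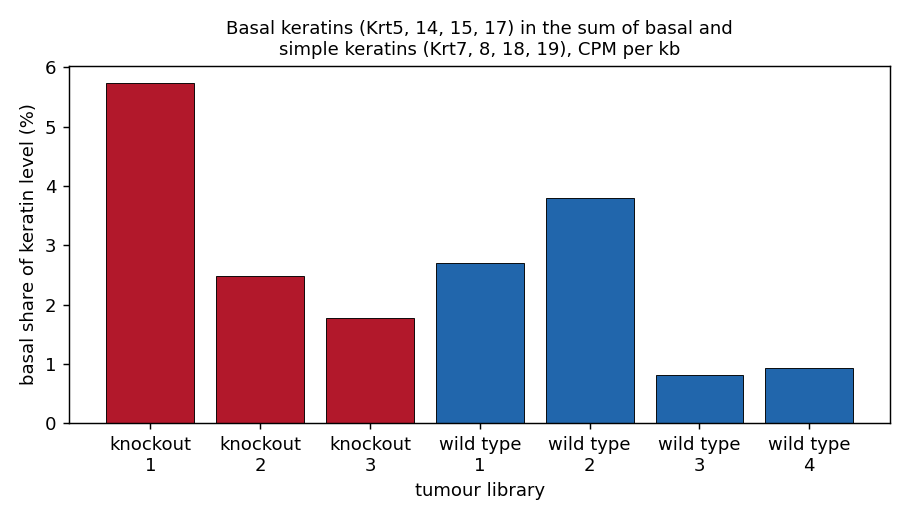
Share of Krt5, Krt14, Krt15 and Krt17 in the summed CPM per kb of these keratins with Krt7, Krt8, Krt18 and Krt19, in percent (bars), for each tumour library, knockout libraries on the left. The share runs from 1.78% to 5.74% in knockout tumours and from 0.804% to 3.80% in wild-type tumours.

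Several members followed Krt5 across the tumours. Over the 7 libraries, the Pearson correlation of log2 CPM with Krt5, given as a description of libraries that share depth and composition, was 0.91 for Trp63, 0.86 for Krt14, 0.79 for Lamb3, 0.73 for Itgb4, 0.71 for Krt15, 0.70 for Itga6 and 0.39 for Krt17 (Spearman's rho 0.50 to 0.86). Without the libraries farthest from the median of Krt5, knockout tumour 1 and wild-type tumour 3, it was 0.87 for Trp63, 0.86 for Krt14, 0.95 for Krt15, 0.72 for Krt17, 0.62 for Itga6, 0.51 for Itgb4 and 0.08 for Lamb3, so the likeness of Lamb3 rested on those libraries. The 5 non-members most like Krt5 were Itch, Ccrl2, Ptpn14, Diap2 and Cdk6, with correlations of 0.96 to 0.98 over the 7 libraries. All 5 exceeded every member, but they were chosen as the highest among the 15117 genes tested, so this says little about the members. The share of all genes as close to Krt5 as the members was not computed.

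The sequence before the start of Krt5 is shown because Krt5 is a known target of p63 and the levels of Krt5 and Trp63 ran together. It covers 250 bases up to the RefSeq transcript start (GRCm38.p6, chr15:101712906-101713155, minus strand), with capitals marking CATG, the core found in many elements bound by the p53 and p63 family.
Krt5: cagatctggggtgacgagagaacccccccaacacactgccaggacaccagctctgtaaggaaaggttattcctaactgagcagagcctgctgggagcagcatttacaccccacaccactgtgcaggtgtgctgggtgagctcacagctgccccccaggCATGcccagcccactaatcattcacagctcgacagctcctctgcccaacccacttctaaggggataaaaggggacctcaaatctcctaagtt
CATG occurred at 1 place, starting at position -92 counted from the start, and it occurs in 53.9% of 32851 mouse promoter windows of this length. TATAAA, the AP-1 motif TGANTCA and the GC box GGGCGG, searched on both strands, had 0 matches in this window, and they occur in 12.4%, 6.75% and 32.7% of the windows. Of these motifs CATG alone was found, so none overlapped. Only these strings were searched, and variants of them were not counted.

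The other genes of the basal adhesion machinery were followed as lists. Of 9 hemidesmosome and laminin partners tested, 8 had a log2 fold change above 0 and 0 passed edgeR's or DESeq2's test, with a median of 0.20; 1 had an unadjusted p under 0.05 by edgeR. Col17a1, the transmembrane collagen of the hemidesmosome, stood at 22.4, 11.8 and 8.59 CPM in knockout tumours, against 2.88, 10.8, 2.83 and 2.87 CPM in wild-type tumours. Wild-type tumour 2 again reached the knockout range, and the log2 fold change was 1.55 (SE 0.63, adjusted p = 0.371 by edgeR). Lama3, a laminin alpha chain, had a log2 fold change of 0.04 (SE 0.65, adjusted p = 0.986 by edgeR). Of the 12 desmosome partners 9 were tested, 5 above and 4 below 0, with a median of 0.02; 0 passed either test and 0 had an unadjusted p under 0.05. Dsp, which links desmosomes to keratin, averaged 346 ± 73.7 CPM in knockout tumours (SD, n = 3) and 321 ± 113 CPM in wild-type tumours (SD, n = 4).

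Of 14 other basal and stem-like genes 11 were tested, 7 above and 4 below 0, with a median of 0.17 and 0 passing edgeR's test; 1 had an unadjusted p under 0.05 by edgeR and DESeq2 called 1 of them. Cd44, a hyaluronan receptor also carried by leukocytes, stood at 98.2, 314 and 318 CPM in knockout tumours, against 37.7, 132, 188 and 177 CPM in wild-type tumours. Of 13 squamous differentiation genes 8 were tested, 5 above and 3 below 0, with a median of 0.52, 0 passing either test and 0 at an unadjusted p under 0.05. Krt4, a keratin of the layers above the basal one, stood at 60.2, 395 and 248 CPM in knockout tumours, against 204, 458, 310 and 656 CPM in wild-type tumours, and was lowest in knockout tumour 1, where Krt5, Krt14 and Trp63 were highest.

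Lists of markers of other cells were read in the same way. All 10 macrophage markers had a log2 fold change above 0, with a median of 2.01 and sums of 449 to 2433 CPM in knockout tumours, against 274 to 299 CPM in wild-type tumours. All 10 cell cycle genes were below 0, with a median of -2.51 and sums of 150 to 519 CPM in knockout tumours, against 1164 to 3187 CPM in wild-type tumours. All 10 fibroblast and matrix genes were above 0 (median 1.29), as were all 10 endothelial genes (median 1.02). The 13 luminal and simple epithelial genes had a median of -0.02 and the 10 tested prostate luminal genes a median of -0.68. The 11 neuroendocrine genes had a median of -3.43, with wild-type tumour 1 far above the rest. The urothelium is another epithelium with p63-positive basal cells, and its 7 genes had a median of 0.79, with 4 above and 3 below 0. Those below 0 were the most abundant, Upk1b (-0.09), Gata3 (-0.66) and Upk1a (-0.46). The urothelial sums overlapped, at 770 to 1137 CPM in knockout tumours, against 486 to 1976 CPM in wild-type tumours. The 8 smooth muscle and myoepithelial genes had a median of 0.08, the 7 mesothelial genes 1.86, the 8 Schwann cell and nerve genes 0.10, the 9 adipocyte genes -0.03 and the 8 seminal vesicle genes 4.05, with knockout tumour 1 far above the rest. With edgeR 0 genes of any of these lists passed. All 10 macrophage and all 10 cell cycle genes had an unadjusted p under 0.05 by edgeR, against 12.4% of all genes. So did 7 fibroblast and matrix, 4 endothelial, 3 neuroendocrine and 3 seminal vesicle genes. The others were 2 prostate luminal, 2 mesothelial and 1 of the Schwann cell and nerve genes. DESeq2 called 5.69% of all genes. In these lists it called 6 macrophage, 9 cell cycle, 2 fibroblast and matrix, 2 prostate luminal, 1 endothelial and 1 of the mesothelial genes. The part of these cells in the values of the basal genes was not tested.

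Without both libraries numbered 2, whose Sqstm1 went against their labels, the knockout values of Krt5, Krt14, Krt17 and Trp63 all lay above the wild-type values, as did those of 11.3% of all genes. Their log2 fold changes were then 1.43, 1.98, 1.32 and 1.92, with adjusted p-values of 0.699, 0.643, 0.832 and 0.708 by edgeR, and 3 members had an unadjusted p under 0.05, against 6.48% of all genes. With wild-type tumour 2 alone left out, knockout values lay above all wild-type values for the same 4 members and for 8.63% of all genes. With knockout tumour 2 alone left out, this held for 1 member, Krt14, and for 9.12% of all genes. Leaving out both libraries numbered 1, with their seminal vesicle and neuroendocrine genes, gave 0 members at an unadjusted p under 0.05 and a single gene, Krt17, whose groups did not overlap, where knockout values were higher without overlap for 14.9% of all genes.

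In epididymal fat, Krt5, Krt15, Krt17 and Dsg3 were listed at or near 0, Krt14, Trp63, Lamb3 and Itgb4 at no more than 4.64 FPKM, and Itga6 at 25.9 to 85.8 FPKM. Of 9 members 5 passed the filter of a mean of 1 FPKM, and 0 of them passed limma's test, where 0.00734% of 13617 genes did. An unadjusted p under 0.05 was reached by 15% of all genes, 6.88% with a higher value in knockout fat, and by 0 members. Group ranges did not overlap for 9.87% of all genes with knockout fat higher and 11.3% with knockout fat lower, and for 0 members. The estimate was above 0 for 1 of the 5, where 50.5% of all genes were above 0, with a median of -0.75 for the members and 0.01 for all genes on the log2(FPKM + 1) scale. For Krt14, Lamb3 and Dsg3 the values lay on steps, and the smallest whole numbers that fit the steps were taken as reads. For Trp63, Itgb4 and Itga6 no such fit was found.

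Krt5 was listed at 0 in all 3 knockout fat libraries and in wild-type libraries 1 and 2, and at 0.0895 FPKM in wild-type library 3. Krt17 was listed above 0 only in knockout library 1, at 0.406 FPKM, and Krt15 only in wild-type library 1, at 0.242 FPKM. Dsg3 stood at 0.0453, 0.0164 and 0 FPKM in knockout fat, against 0.0470, 0.0408 and 0 FPKM in wild-type fat. None of these 4 genes passed the filter, and they were not tested.

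Krt14 stood at 0.607, 0.264 and 0.145 FPKM in knockout fat, or 5, 6 and 1 reads, against 1.13, 0 and 4.64 FPKM in wild-type fat, or 9, 0 and 38 reads. Wild-type library 3 held most of the reads. That library and knockout library 2 also had the highest sums of luminal and simple epithelial genes, at 185 FPKM in knockout library 2 and 182 FPKM in wild-type library 3, against 15.3 to 73.9 FPKM in the other 4; the part of epithelial RNA in the Krt14 values was not tested. The log2 fold change of Krt14 was -0.79 (SE 0.65, adjusted p = 0.587 by limma).

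Trp63 stood at 0.350, 0.421 and 1.04 FPKM in knockout fat, against 4.26, 0.980 and 1.28 FPKM in wild-type fat, with knockout library 3 just above wild-type library 2. Its log2 fold change was -0.87 (SE 0.47, adjusted p = 0.427 by limma). Lamb3 stood at 0.459, 3.45 and 1.15 FPKM in knockout fat, against 0.572, 4.22 and 0.924 FPKM in wild-type fat. Both libraries numbered 2 were high in Lamb3, and the log2 fold change was -0.06 (SE 0.60, adjusted p = 0.976 by limma).

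Itgb4 stood at 1.16, 3.08 and 1.998 FPKM in knockout fat, against 1.36, 1.26 and 2.54 FPKM in wild-type fat, a log2 fold change of 0.16 (SE 0.37, adjusted p = 0.864 by limma). Itga6 was far more abundant than its partner, at 25.9, 59.1 and 50.1 FPKM in knockout fat, against 85.8, 75.4 and 58.2 FPKM in wild-type fat. The groups overlapped by a narrow margin, knockout library 2 against wild-type library 3, and the log2 fold change was -0.75 (SE 0.35, adjusted p = 0.360 by limma). It was -0.40 without knockout library 1 and -0.98 without knockout library 2. The 10 endothelial markers summed to 286 to 530 FPKM in knockout fat, against 278 to 371 FPKM in wild-type fat.

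**Figure D4:**
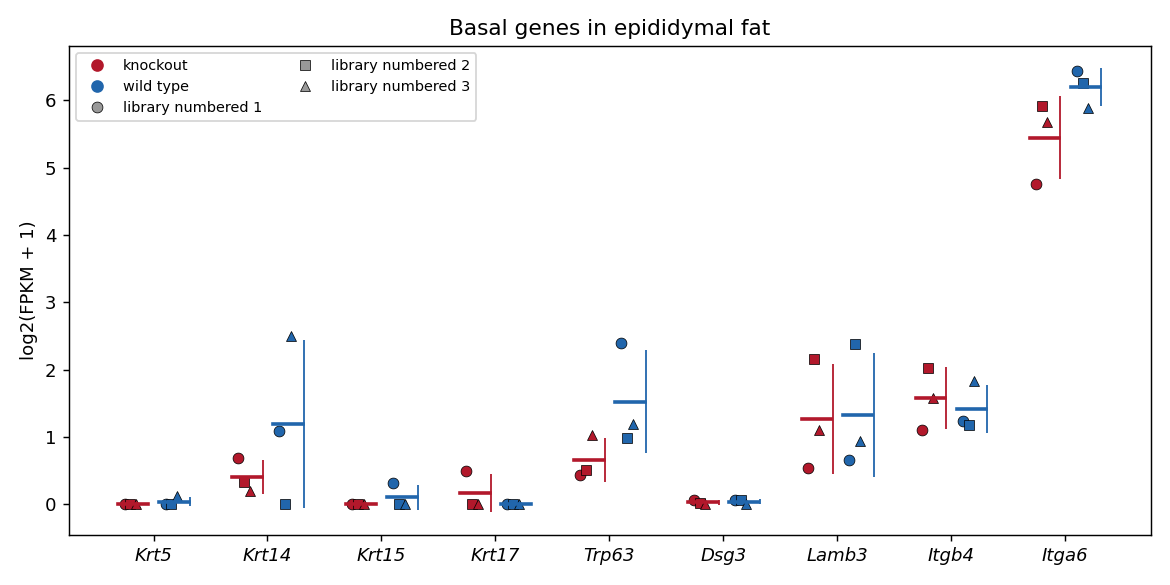
Level of the basal genes in each fat library, as log2(FPKM + 1), knockout libraries left of wild-type libraries; marker shape gives the library number, horizontal lines are group means and vertical lines the SD (n = 3 each). Itga6 stands above the other members in all 6 libraries, and Krt5, Krt15, Krt17 and Dsg3 lie at or near 0.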

How the data were processed

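Groups and library numbers follow the labels, and the 9 members and the 18 lists were chosen with earlier results of these data known. The labels do not say that libraries came from separate mice, so p-values measure the spread between these libraries, which may be partly technical. Per the labels, a directional kit was used; STAR, DESeq2 and mm10 are named in the submitters' processing notes, without versions, while the read counter and its annotation go unnamed there. The authors deposited raw counts per gene for tumours. The authors deposited values read here as FPKM for fat, and they are not whole. Relative depth was recovered from ratios of low values between libraries. By it, 1 read is worth 2.48 to 3.29 times as much FPKM in the other libraries as in knockout library 2. With this depth, the values of Krt14, Lamb3 and Dsg3 were whole multiples of a step within 0.02. Those of Trp63, Itgb4 and Itga6 gave no such fit. Reads of a gene are the smallest whole numbers that fit its steps, given only where several libraries had a value, and may be multiples of these.

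For tumours, edgeR 4.0.16 was run on the counts with TMM factors, a filterByExpr minimum of 10 counts and the quasi-likelihood test. Fat was tested with limma 3.58.1 (trend) on log2(FPKM + 1), keeping genes whose mean reached 1 FPKM, a scale that understates changes of low genes. P-values are two-sided and Benjamini-Hochberg adjusted over all genes tested, called at 0.05, in R 4.3.3. DESeq2 1.42.0, other scalings, no filter, another pseudocount, a replicate block and leaving out libraries were alternatives. The code was tested on simulated data. Lengths are unions of exons in GENCODE M21 (mm10); promoter sequence is from RefSeq.

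Same-numbered tumours deviated together from their group means (correlations over genes of 0.18, 0.11 and 0.27 for numbers 1 to 3). Differently numbered tumours had correlations of -0.19 to 0.05. The main fits did not pair same-numbered tumours, and a fit with the library number as a block was an alternative. The labels do not say what the numbers mark. In fat the correlations were -0.05, 0.15 and 0.15 for the same numbers, and -0.28 to 0.18 for different numbers. Named genes were the 9 members, up to 3 genes of highest mean level per list with Lama3, Col17a1, Krt8 and Krt18, and the 5 tested genes most correlated with Krt5. Intervals for a count of 0 cover counting error only. A structural partner named by the same rule is not reported here.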

Additional observations from a re-analysis of the deposited data

Results flagged for a closer look

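Among the 4 wild-type tumours, tumour 1 stood apart from the rest in the summed level of neuroendocrine genes. The gap to the nearest library was 0.988 of the group's range. Tumour 1 also stood apart in the summed level of cell cycle genes, with a gap of 0.942. Values above 0.829 are called far from the others, and chance gives about 1 in 20 such groups for normally distributed values. The rule was applied to the 9 members and the sums of the 18 lists, so chance alone can give such flags. In wild-type tumour 1 Krt14, Krt17, Trp63 and Itga6 were the lowest of the 7 tumours. None of the 8 tested basal genes had a wild-type library this far from the others.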

How the results depend on the processing

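No basal gene was called by edgeR, DESeq2 or limma under any alternative run, and 102 of 112 tumour values and 42 of 47 fat values of the members kept their direction; the smallest adjusted p was 0.137 in tumours and 0.269 in fat. The cause of the changes below was not tested. Krt15 turned to -0.087 with the replicate block on pairs, to -0.51 without knockout tumour 1, to -0.21, -0.03 and -0.26 without wild-type tumours 1, 3 and 4, and to -0.76 without both libraries numbered 1, with 0.996 as its highest value when a library was left out. Itga6 in tumours turned to -0.03 without knockout tumour 1, to -0.046 and -0.0073 without wild-type tumours 1 and 3, and to -0.15 without both numbered 1, with 0.226 as its highest value. In fat, Lamb3 turned to 0.30, 0.02 and 0.47 without knockout libraries 1 and 3 and wild-type library 2 (lowest -0.502), and Itgb4 to -0.067 without knockout library 2 and -0.18 without both numbered 2 (highest 0.392), where Lamb3 fell below the filter.

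Genes called in tumours numbered 0 in every edgeR fit and 846 by DESeq2; with the replicate block they stayed at 0, and at 1 in fat. In fat, 1 gene was called, 2 to 4 with a library left out and 5 without both numbered 2. Tumour members at an unadjusted p under 0.05 numbered 1, 2 by DESeq2, 0 to 3 with a library left out, 3 without both numbered 2 and 0 without both numbered 1. Of all genes, 12.4% reached it by edgeR, 12.9% by DESeq2 and 7.56% to 15% with a library left out. The share was 6.48% without both numbered 2 and 9.1% without both numbered 1. Fat members numbered 0, where 15% of all genes reached it, and 0 to 1 with a library left out. In fat the share of all genes was not computed with a library left out. Tumour members above 0 numbered 8, or 6 to 8 with a library left out and 7 with the block. Fat members above 0 numbered 1, 0 to 2 with a library left out and 0 without both numbered 2. In the main fits 43.2% of all genes were above 0 in tumours and 50.5% in fat. The share above 0 was not computed for the other fits. Tumour members whose groups did not overlap numbered 0, 1 with library totals, 0 to 4 with a library left out, 4 without both numbered 2 and 1 without both numbered 1. Knockout values lay above all wild-type values for 6.69% of all genes, 11.3% without both numbered 2 and 14.9% without both numbered 1. The share was 8.63% without wild-type tumour 2 and 9.12% without knockout tumour 2. It was not computed for library totals or the other left-out libraries. Dsg3 in tumours and Krt5, Krt15, Krt17 and Dsg3 in fat lay below the filters and were not tested.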
